A study of Homo sapiens with 2 samples.

Results

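HOXA5, HOXA6 and HOXA7 are 3 neighbouring genes of the HOXA cluster on chromosome 7, and the stretch of 28 kb that holds them was examined here around the guide RNA of a targeted methylation system. The unit of measurement was the CpG, a cytosine followed by a guanine. CpGs of the 28 kb that had at least 1 read in both whole-genome bisulfite sequencing (WGBS) libraries were taken, which gave 786 of the 1047 CpGs in the reference (75.1%) and compares with 14699127 CpGs in the genome as a whole. The first lies at position 27172166 and the last at 27199995 (hg19), and all 786 fell on a CG of the reference. Of the others, 198 were read only in the control, 47 only in the treated library and 16 in neither.

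Both libraries came from HEK293T, an established line derived from human embryonic kidney. The control library, Neg, is described by the study as untreated cells that received no vector, although its label carries the same text on infection for 30 days as the other. The second library, dCas9+3A+HOXA5, came from cells in which lentiviruses had stably introduced dCas9-SunTag, scFv-DNMT3A1 and a guide RNA against HOXA5, and cells positive for the fluorescent markers were purified. Each group is 1 library, so that every test on reads below compares these libraries and not the conditions, and no value has a spread between replicates. Neg held 89774283 reads summed over CpGs and dCas9+3A+HOXA5 held 46703423.

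HOX genes encode homeodomain transcription factors that set position along the body axis, and their clusters lie in long CpG-rich valleys that are free of methylation in most cells. HOXA5, HOXA6 and HOXA7 are all transcribed towards lower coordinates, so that higher coordinates are upstream of each. DNMT3A is an enzyme that sets new methylation on CpGs. dCas9 is a Cas9 that binds DNA at the guide without cutting it, and SunTag is a peptide array on it that several antibody fragments, here fused to DNMT3A, can bind at once.

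The guide lies in the coding part of exon 1 of HOXA5 (ENSG00000106004; exon at chr7:27182665-27183300, GRCh37, whose coordinates are those of hg19). Distances below are measured from the centre of its site, negative towards lower coordinates.

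The sequences below show stretches that behaved differently, with each CG in capitals. The first (chr7:27179310-27179509, plus strand) is the 200-bp window with the most CpGs that were at or below 20% in Neg and at or above 80% in dCas9+3A+HOXA5. The second (chr7:27190122-27190321, plus strand) surrounds the most upstream annotated start of HOXA6, where no methylated read was found in either library. The last are the 250 bases upstream of HOXA6 (chr7:27187394-27187643) and HOXA7 (chr7:27196295-27196544) from the RefSeq promoter table, both on the minus strand.
Filled stretch: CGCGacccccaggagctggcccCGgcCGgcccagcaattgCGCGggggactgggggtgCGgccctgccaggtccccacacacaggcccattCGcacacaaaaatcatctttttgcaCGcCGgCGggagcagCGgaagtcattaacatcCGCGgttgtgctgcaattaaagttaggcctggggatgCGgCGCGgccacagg
Spared stretch: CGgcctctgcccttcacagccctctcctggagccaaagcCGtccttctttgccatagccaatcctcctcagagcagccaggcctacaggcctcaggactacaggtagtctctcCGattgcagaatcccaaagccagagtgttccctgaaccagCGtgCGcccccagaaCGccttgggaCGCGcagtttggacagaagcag
HOXA6 promoter: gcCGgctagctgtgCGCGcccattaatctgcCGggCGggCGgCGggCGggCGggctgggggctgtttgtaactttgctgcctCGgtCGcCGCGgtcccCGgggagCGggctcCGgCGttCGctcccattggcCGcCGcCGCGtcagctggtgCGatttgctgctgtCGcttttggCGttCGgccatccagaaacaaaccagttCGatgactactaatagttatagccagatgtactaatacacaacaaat
HOXA7 promoter: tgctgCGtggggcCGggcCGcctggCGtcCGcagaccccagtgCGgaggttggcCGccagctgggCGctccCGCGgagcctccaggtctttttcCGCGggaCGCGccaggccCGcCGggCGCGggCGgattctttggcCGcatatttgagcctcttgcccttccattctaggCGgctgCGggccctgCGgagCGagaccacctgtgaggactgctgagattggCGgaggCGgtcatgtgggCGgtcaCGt

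These sequences had the following levels, which are the mean over CpGs of the deposited fraction unless reads are named. The filled stretch went from 4.27% to 98.0% over 17 CpGs, which is how it was chosen. The spared stretch had 0 of 40 methylated reads in Neg and 0 of 28 in dCas9+3A+HOXA5 at 8 CpGs. The 250 bases upstream of HOXA6 went from 1.19% to 47.6% over 21 CpGs, whereas those upstream of HOXA7 were already at 89.5% in Neg and were at 80.7% in dCas9+3A+HOXA5 over 19 CpGs.

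The 28 kb as a whole was far more methylated in the treated library. The mean level was 13.4% for Neg (SD over CpGs 25.7) and rose to 58.0% for dCas9+3A+HOXA5 with an SD over CpGs of 43.8, that is, by 44.6 points. Neg had 441 methylated reads among 3212 (95% Wilson interval 12.6 to 14.96%), whereas dCas9+3A+HOXA5 had 1339 of 2462 (52.4 to 56.4%; Fisher's exact test, two-sided, p = 6.199e-240). Neighbouring CpGs are often read on the same fragment, so that reads are not independent molecules and this p and the intervals cover counting error only. With at most 1 CpG taken per 200 bp, the difference was 48.7 points over 102 CpGs (p = 1.63e-37 by the same exact test). The level was higher in dCas9+3A+HOXA5 at 520 CpGs, lower at 59 and equal at 207.

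The gain was spread unevenly over CpGs. Of the 558 CpGs with no methylated read in Neg, 228 were at 100% in dCas9+3A+HOXA5, 183 were still at 0% and 147 lay between. CpGs at or below 20% in Neg went from 0.657% to 53.9% over 584 CpGs, and the same class went from 0.714% to 26.1% over 3404900 CpGs of the genome. Both sets were chosen for a low value in Neg, so that these rises are not free of that choice. Over all shared CpGs of the genome the mean difference was 5.81 points. CpGs of the 28 kb above 20% in Neg went from 50.4% to 70.1% over 202 CpGs. The 36 CpGs at or above 80% in Neg were lower in dCas9+3A+HOXA5, at 97.9% against 83.6%, but they were chosen for a high value in Neg. Many of these levels rest on few reads: the median depth was 4 reads for Neg and 2 for dCas9+3A+HOXA5, where 235 CpGs had 1 read, and 67 CpGs reached 5 reads in both libraries. Taken singly, 0 of 786 CpGs passed Fisher's exact test at the threshold of 0.01 after Benjamini-Hochberg adjustment over the genome, in which 0.000435% of CpGs were called higher. At an unadjusted p under 0.05, 89 (11.3%) were higher and 1 was lower, against 1.02% higher and 0.629% lower in the genome. Depth limits the count of 0 after adjustment. The smallest unadjusted p in the 28 kb was 0.000583 by Fisher's exact test. It came from 0 of 7 methylated reads in Neg and 6 of 6 in dCas9+3A+HOXA5, and even this full separation did not pass.

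HOXA5, the target of the guide, was higher in dCas9+3A+HOXA5 in all 4 pieces, with the smallest difference in its first exon, where the guide binds. Differences between pieces were not tested. Its first exon went from 0.721% to 29.6% over 43 CpGs, with 2 of 156 methylated reads in Neg and 22 of 86 in dCas9+3A+HOXA5 (Wilson interval 17.5 to 35.7%; Fisher's exact test, adjusted p = 3.65e-07). With at least 3 reads in both libraries the exon kept 10 CpGs and was no longer called, at a difference of 32.5 points (adjusted p = 0.0110 by the exact test). Its promoter, the 1 kb upstream of the start (chr7:27183301-27184300), went from 2.36% to 45.3% over 56 CpGs, with 7 of 170 and 133 of 374 methylated reads (30.9 to 40.5%; adjusted p = 1.485e-14 by the same exact test). With at most 1 CpG per 200 bp the promoter kept 5 CpGs and was not called (difference 61.3 points, adjusted p = 0.415 by the exact test). Taken as 1 kb centred on the start, it had a smaller difference of 25.4 points and was called (adjusted p = 3.244e-14 by the exact test). Downstream the levels were higher: the intron went from 2.86% to 73.2% over 39 CpGs (adjusted p = 2.992e-33) and exon 2 from 10.8% to 88.5% over 26 CpGs (adjusted p = 2.835e-17, exact test for both).

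HOXA6, the next gene upstream, was higher in dCas9+3A+HOXA5 in all 4 of its pieces as well. Its exon 2 went from 4.31% to 68.2% (29 CpGs), its intron from 1.79% to 88.9% (14 CpGs), its first exon from 1.25% to 65.0% (20 CpGs) and its promoter (chr7:27187394-27188393) from 0.915% to 60.9% (41 CpGs). The promoter had 2 of 134 methylated reads in Neg while dCas9+3A+HOXA5 had 60 of 102 (49.1 to 67.9%), and all 4 pieces passed the thresholds, with adjusted p between 6.646e-17 and 1.885e-09 for exon 2, the intron and the first exon and 2.884e-22 for the promoter by Fisher's exact test. The first exon rests on 17 of 26 methylated reads in dCas9+3A+HOXA5, at 1.3 reads per CpG. With at least 3 reads, the promoter and exon 2 kept their calls, but the first exon and the intron were left with under 5 CpGs and gave no value. No piece of HOXA6 gave a value with at least 5 reads or with at most 1 CpG per 200 bp.

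HOXA7 differed from both in that it already carried methylation in Neg. Its promoter (chr7:27196295-27197294) had a level of 70.5% for Neg and 82.8% for dCas9+3A+HOXA5 (43 CpGs), a difference that did not pass the thresholds (85 of 119 and 106 of 132 methylated reads, intervals 62.7 to 78.8% and 72.7 to 86.2%, exact test, adjusted p = 0.374). Its first exon was at 20.9% and 43.99% by the mean over 34 CpGs but at 19.8% and 21.98% of the reads (36 of 182 and 20 of 91, adjusted p = 1 by the exact test), so that the larger mean rests on CpGs with few reads. With at least 3 reads, its sign turned (difference -19.33 points, adjusted p = 0.0327 by the exact test). The intron was at 28.9% and 30.9% over 34 CpGs and at 32.2% and 23.5% of the reads, was not called (adjusted p = 0.296 by the exact test), and was called lower with at least 3 reads (difference -22.33 points, adjusted p = 0.00649). Exon 2 alone was called in this gene, from 57.6% to 99.1% over 47 CpGs (134 of 240 and 140 of 142 methylated reads, adjusted p = 2.883e-20 by the exact test). With at most 1 CpG per 200 bp it kept 6 CpGs and was not called (difference 47.2 points, adjusted p = 0.0967 by the exact test).

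Across the 3 genes, 2 of 3 promoters were called higher, where called means over 20 points apart with an adjusted p below 0.01. In the genome, 1.49% of 16952 promoters were called higher. The same held for 2 of 3 first exons (0.961% in the genome), 2 of 3 introns (2.06%) and 3 of 3 later exons (0.662%). The median difference over all promoters tested was 1.15 points, and 0.690% and 0.177% of them were at or above the differences of HOXA5 and HOXA6.

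**Figure D1:**
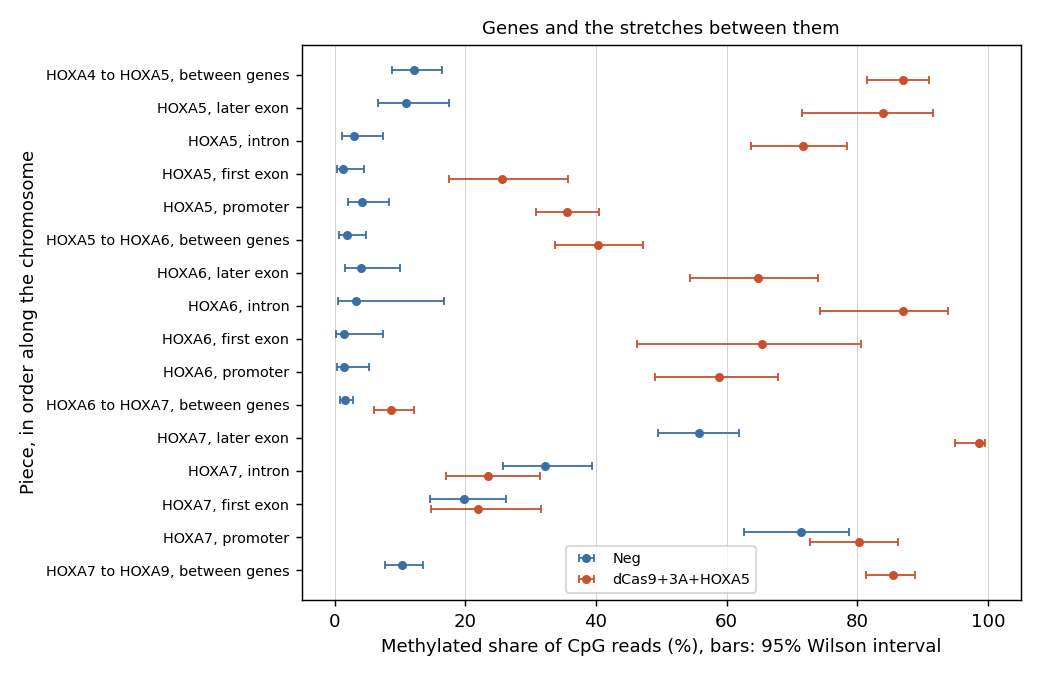
Share of methylated reads (x axis, %) in each gene piece and in the stretches between genes (y axis, ordered from low to high coordinates) for Neg (blue) and dCas9+3A+HOXA5 (red), with 95% Wilson intervals of the reads of 1 library each. The intervals are apart in 12 called pieces and in the stretch from HOXA6 to HOXA7, and overlap in the HOXA7 intron, first exon and promoter.

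Of the 4 stretches between genes, taken with their ends at the limits of the 28 kb and without the promoters of the genes that bound them, 3 were called higher (3.88% in the genome). HOXA3, annotated from 27145803 to 27192202, contains HOXA5 whole and was passed over in setting the stretches, so that part of this sequence lies within HOXA3. The HOXA3 promoter was therefore not taken out. It lies in the stretch from HOXA6 to HOXA7, and its 20 CpGs went from 1.67% to 35.0%. The stretch from HOXA4 to HOXA5 went from 10.2% to 86.3% over 82 CpGs, that from HOXA5 to HOXA6 from 1.60% to 37.02% over 46 CpGs and that from HOXA7 to HOXA9 from 12.6% to 87.0% over 99 CpGs. The stretch from HOXA6 to HOXA7 had a low mean in both libraries. Its 133 CpGs were at 1.58% in Neg and, with the treatment, at 10.9%, with 10 of 643 and 27 of 314 methylated reads, which differed between the libraries (adjusted p = 2.421e-06 by Fisher's exact test) but by less than 20 points. That p rose to 0.0375 with at least 3 reads and to 0.0775 with at most 1 CpG per 200 bp, both above 0.01 by the exact test. The low mean does not hold near the ends of this stretch, where 500-bp tiles were called higher. The tile from 27188500 went from 0% to 45.5%, with 11 of 22 methylated reads in dCas9+3A+HOXA5. The tile from 27192500 went from 3.33% to 70.0%, with 11 of 16.

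By distance, the profile in dCas9+3A+HOXA5 dipped at and just upstream of the guide, rose on both sides within 5 kb and was at 0% from 7 to 8 kb (40 CpGs) and from -11 to -10 kb (2 CpGs). The level was 64.6% from -1 to 0 kb (58 CpGs) and 22.97% from 0 to 1 kb (60 CpGs), against 2.46% and 0.953% in Neg. It reached 87.0% from -2 to -1 kb and 93.3% from -4 to -3 kb on the downstream side, and 46.3% and 70.2% from 1 to 2 and 2 to 3 kb on the upstream side. On the side of lower coordinates as a whole, 170 CpGs went from 7.41% to 79.2%, and on the side of higher coordinates 616 CpGs went from 15.1% to 52.2%. Within 5 kb of the guide, Spearman's rho of the level in dCas9+3A+HOXA5 with absolute distance was 0.33 over 346 CpGs, a description over CpGs that share fragments and 1 library, and rho of its read number with absolute distance was -0.28. Over all 786 CpGs, rho was 0.16 for the level and -0.06 for the difference.

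In 500-bp tiles with at least 5 CpGs, 28 of 40 tiles were called higher and 0 lower, against 1.05% of 1030177 tiles called higher and 0.398% called lower in the genome. Of the 33 tiles at or below 20% in Neg, 25 were called higher, against 3.13% of 97981 such tiles in the genome. Their median difference was 62.4 points, and 0 points in the genome. The tile at the guide (centre at -143 bp) went from 1.89% to 43.4%, and the next one upstream (357 bp) from 0% to 21.5%, with 36 of 135 methylated reads in dCas9+3A+HOXA5.

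**Figure D2:**
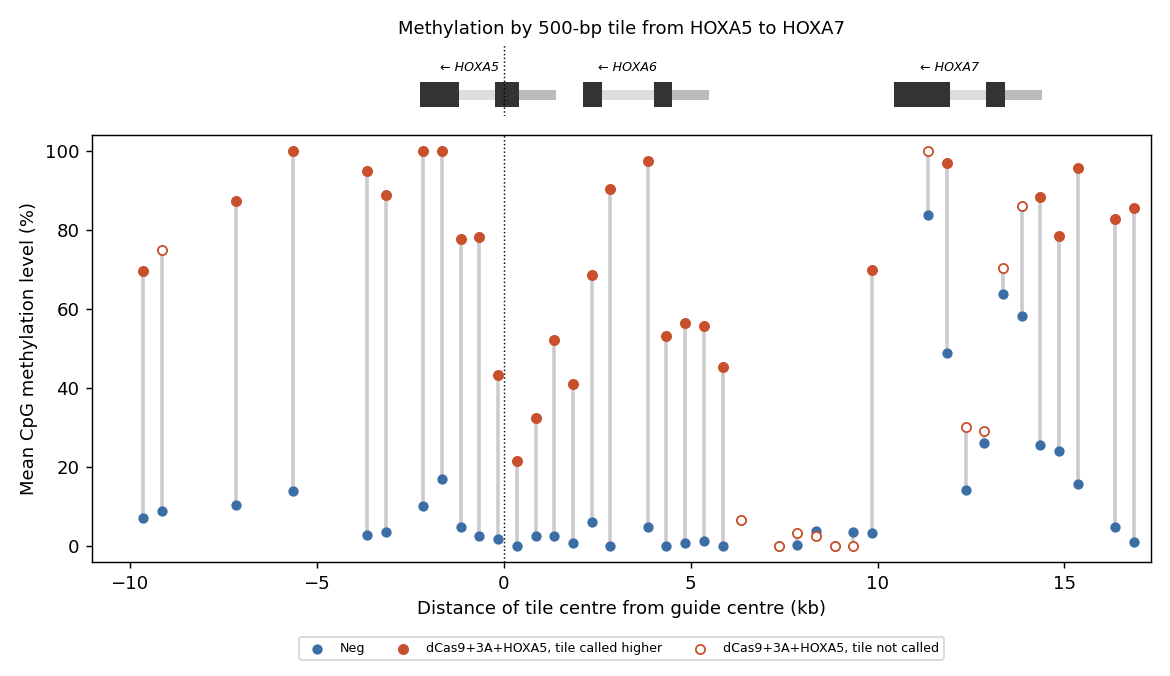
Mean methylation level (y axis, %) of 500-bp tiles against the distance of their centre from the guide (x axis, kb) for Neg (blue) and dCas9+3A+HOXA5 (red, filled where called higher), with gene exons (dark boxes), introns (thin) and promoters (grey) above and arrows in the direction of transcription. Of 40 tiles 28 were called higher, and the tiles centred from 6357 to 9357 bp were at 6.66% or below in both libraries.

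Single CpGs inside and just upstream of the guide site were low in dCas9+3A+HOXA5, whereas those just downstream were not. The 3 CpGs inside the protospacer had 0 of 9 methylated reads in Neg and 1 of 9 in dCas9+3A+HOXA5. From 18 to 381 bp upstream, 30 CpGs read in dCas9+3A+HOXA5 had 0 of 53 methylated reads, with at most 3 reads at 1 CpG. Neg had 0 of 50 there over the 23 CpGs that it read, and the limits of this stretch were set by the nearest methylated reads in dCas9+3A+HOXA5. From -250 to 0 bp the level was 54.0% over 23 CpGs with 21 of 46 methylated reads, and from 0 to 250 bp it was 2.08% over 16 CpGs with 1 of 36. This step at the guide rests on few reads on either side.

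Further upstream the read number itself differed between the libraries. In the HOXA5 promoter dCas9+3A+HOXA5 had 6.68 reads per CpG and Neg 3.04, a ratio of 2.2, against 0.701 over the CpGs shared in the genome. From 500 to 750 bp the ratio was 5.39, with 67 of 221 methylated reads in dCas9+3A+HOXA5 and 0 of 41 in Neg over 23 CpGs. Of the 19 promoter CpGs with at least 10 reads in dCas9+3A+HOXA5, 14 had 3 methylated reads and 2 had 0, out of 10 to 13 reads each. The files do not say which reads were on the same fragment, and the part of depth in the low levels upstream of the guide was not tested.

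**Figure D3:**
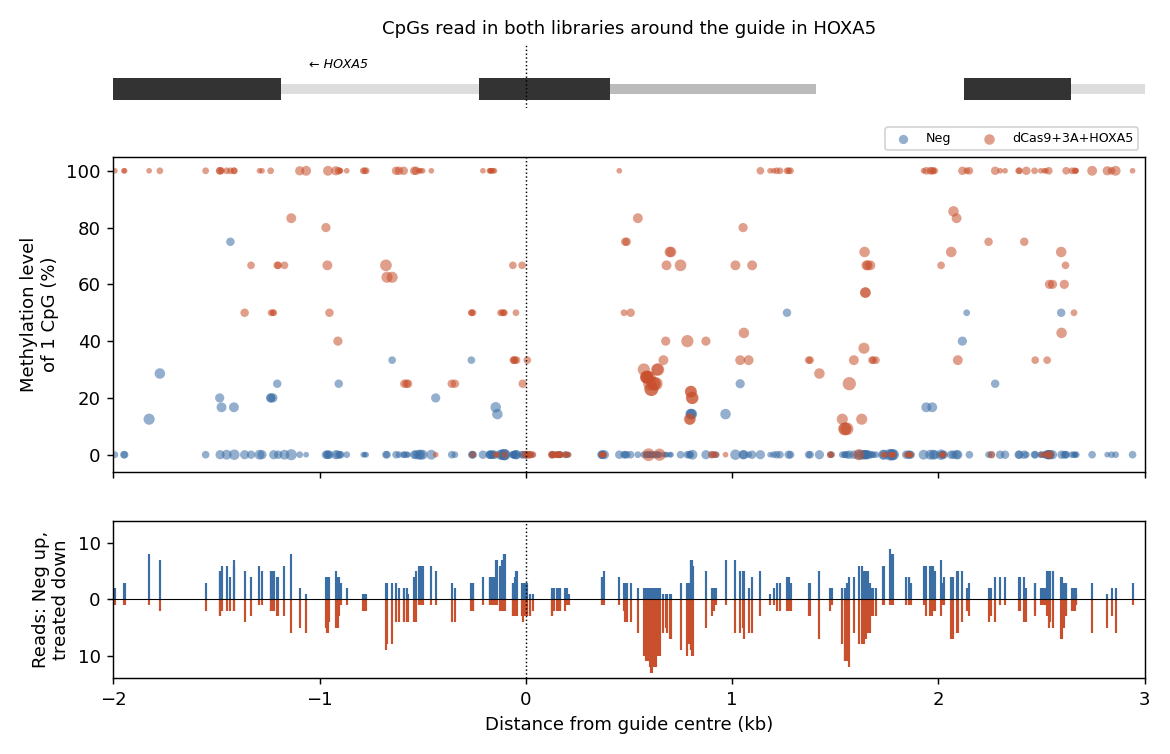
Methylation level of single CpGs (upper plot, y axis in %, point area grows with the number of reads) and reads per CpG (lower plot, Neg upwards and dCas9+3A+HOXA5 downwards) against distance from the guide (x axis, kb). Neg (blue) lies mostly at 0%, dCas9+3A+HOXA5 (red) is at or near 0% from 18 to 381 bp, and its read number is highest between 0.5 and 1 kb.

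The same WGBS reads were also summarised at the positions of the bisulfite PCR amplicons of the study, which is a description of the same CpGs in other bins and uses no amplicon value. Between the outermost primers (27181121 to 27185584), the amplicon spans downstream of the guide, P4, P3, P2 and P1, were at 91.7%, 79.5%, 81.5% and 54.6% in dCas9+3A+HOXA5. Bis1, which covers the guide, was at 21.3%, from 21 of 82 methylated reads over 34 CpGs. The study reports higher methylation across this locus in its own amplicons, which were read far more deeply and were not compared here. Upstream of Bis1, E1 to E5 were at 29.3%, 74.9%, 25.1%, 59.1% and 69.6%, so that the rise was not steady on this side. Neg was between 0% and 12.8% in all 10 spans. E1 had 301 reads in dCas9+3A+HOXA5 and 88 in Neg, a ratio of 3.42.

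In the middle of the stretch between HOXA6 and HOXA7, few reads were methylated in dCas9+3A+HOXA5, whereas the ends of the stretch and both sides were methylated. From 7 to 8 kb upstream of the guide, 40 CpGs had 0 of 112 methylated reads in dCas9+3A+HOXA5 (95% Wilson interval 0 to 3.32%) and 1 of 296 in Neg, and from 8 to 9 kb 31 CpGs had 3 of 78 and 2 of 120. The longest runs of CpGs without a methylated read in dCas9+3A+HOXA5 lay here. The run from 27191015 to 27192549 held 58 CpGs with 121 reads in dCas9+3A+HOXA5. Neg had 9 of 303 methylated reads there, over the 75 CpGs that it read. The run from 27189816 to 27190911 held 45 CpGs with 126 reads in dCas9+3A+HOXA5, and Neg had 1 of 418 methylated reads over 61 CpGs. The limits of these runs were set by the nearest methylated reads, so that their counts of 0 carry no upper limit.

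These runs overlap annotated transcript starts. The most upstream annotated start of HOXA6 (27190222) lies in one, and the 37 CpGs in the 1 kb around it were at 0.205% in Neg and at 0% in the treated library. HOXA3, a HOX gene further downstream with transcripts that run across HOXA5 and HOXA6, has its most upstream start at 27192202 in the other, and the 43 CpGs around it were at 3.22% in Neg and at 6.98% in the treated library. Of the other genes that overlap the 28 kb, HOXA-AS2, HOXA-AS3, ENSG00000273433, ENSG00000272801 and ENSG00000270182 are long non-coding RNAs. Levels in the 1 kb around the starts outside these runs varied, from 12.1% in dCas9+3A+HOXA5 (2 of 40 methylated reads, 3.03% in Neg) at a HOXA-AS3 start between HOXA6 and HOXA7 to 88.0% at the start of ENSG00000270182. Around the HOXA3 start at 27179840, 25 CpGs went from 4.24% to 86.7%, and around the HOXA7 start at 27197555, upstream of the one used for the promoter, 35 CpGs went from 22.9% to 82.2%.

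Within HOXA7 the levels changed over short distances. The longest run of CpGs at 100% in dCas9+3A+HOXA5 (27193976 to 27194921) held 42 CpGs with 114 reads and lay mostly in exon 2 of HOXA7. Neg had 155 of 269 methylated reads there (57.6%), over the 51 CpGs that it read. Shortly upstream, at the end of exon 1 and the start of the intron, the order was the other way round. From 12919 to 12983 bp dCas9+3A+HOXA5 had 0 of 35 methylated reads over 10 CpGs and Neg had 18 of 49, and from 12805 to 12843 bp it had 0 of 37 over 9 CpGs and Neg 18 of 58. These runs were picked for having no methylated read in dCas9+3A+HOXA5, so that no test was made.

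**Figure D4:**
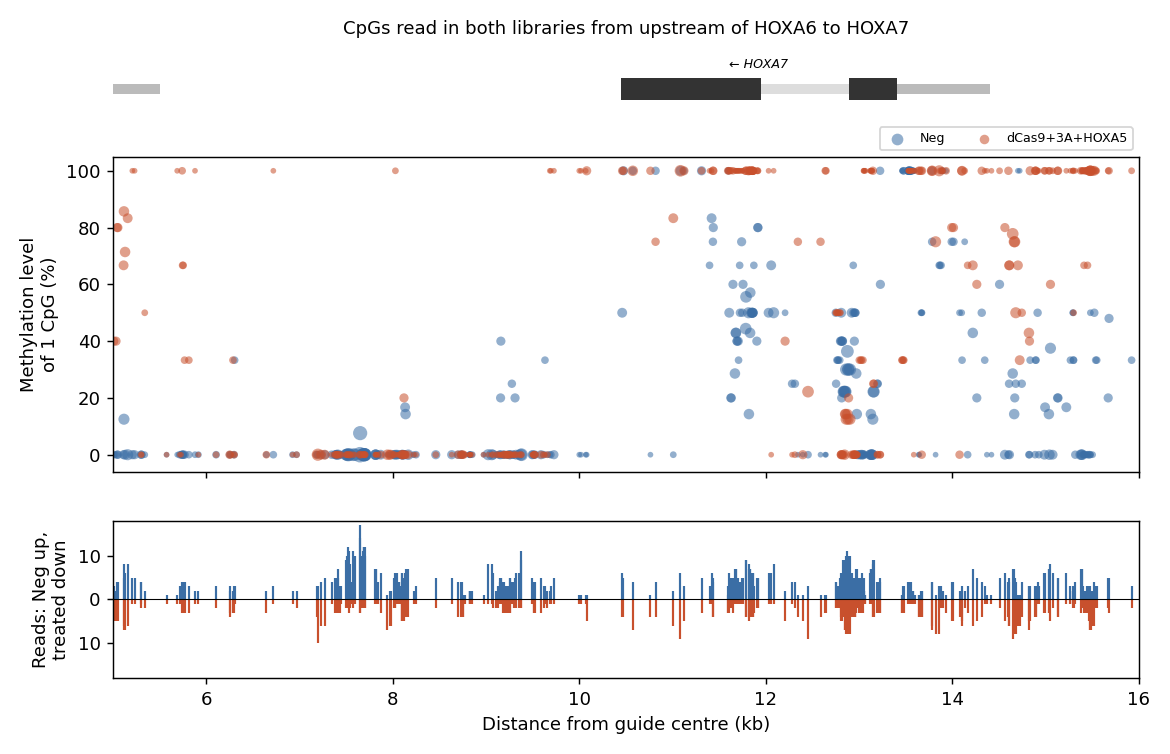
Methylation level of single CpGs (upper plot, y axis in %, point area grows with the number of reads) and reads per CpG (lower plot, Neg upwards, dCas9+3A+HOXA5 downwards) from 5 to 16 kb upstream of the guide (x axis, kb). Both libraries lie near 0% from 7 to 9 kb, and HOXA7 carries intermediate levels in Neg (blue) with dCas9+3A+HOXA5 (red) at a mean of 99.1% over exon 2.

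The sequence around the CpGs is given as a description, with no test. Among the 584 CpGs at or below 20% in Neg, those followed by C or T on 0, 1 or 2 strands were at 51.4%, 54.5% and 55.5% in dCas9+3A+HOXA5, with SDs over CpGs of 43.7, 44.4 and 44.5. CpGs with 0 to 4 other CpGs within 100 bp were at 68.8%, those with 5 to 9 at 52.2%, those with 10 to 14 at 60.6% and those with 15 or more at 45.6%. Letters of the core motif of CTCF, a DNA-binding protein that organises chromatin in HOX clusters, were searched as AGNNGGCNC on both strands. There were 30 matches, and 24 of 93 windows of 300 bp in the 28 kb (25.8%) held at least 1, against 7.64% of such windows on the chromosome. The windows were not matched for base composition, so that the larger share is not read as an excess of the motif. Within 150 bp of the matches the level in dCas9+3A+HOXA5 was under 20% at 3 and over 80% at 14. Neg was between 0% and 81.3% at those 14, so that they are not all places with a gain. The mean over the whole 28 kb was 58.0%, and stretches without a match were not compared. A match does not show that the factor binds.

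Over all CpGs, the difference between the libraries was larger in the 28 kb than in the rest of the same cluster and in the HOXB cluster, and at the CpGs that were low in Neg it was larger in points but did not pass the test on log odds ratios. The 40 kb on the side of lower coordinates went from 49.1% to 71.2% over 836 CpGs, the 40 kb on the other side from 21.9% to 40.8% over 1127 CpGs, and the HOXB cluster (chromosome 17) from 51.0% to 71.4% over 3341 CpGs. The log odds ratio between the libraries was 2.01 (SE 0.0653) in the 28 kb against 1.11, 0.715 and 0.914 in the others (Wald test on read counts, which is not an exact test, p = 2.028e-25, 1.304e-56 and 1.498e-54). The SE and every p of this test take reads as independent, although neighbouring CpGs share fragments. The comparison of stretches was not repeated on thinned CpGs. Among the CpGs at or below 20% in Neg this test did not pass (again not an exact test, p = 0.195, 0.359 and 0.0613). The differences of the log odds ratios from the 3 stretches fell there from 0.898, 1.298 and 1.099 to 0.414, 0.300 and 0.441, in a class chosen for Neg levels near 0. The level in dCas9+3A+HOXA5 was 53.9% in the 28 kb and 38.1%, 29.0% and 43.3% in the other stretches, so that the difference between the libraries in the 28 kb was larger by 15.7, 24.5 and 10.7 points. With at least 5 reads, the stretch at lower coordinates did not pass either, with a log odds ratio difference of 0.044 against 0.898 over all CpGs (p = 0.843, not an exact test) and an excess of 11.5 points.

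**Figure D5:**
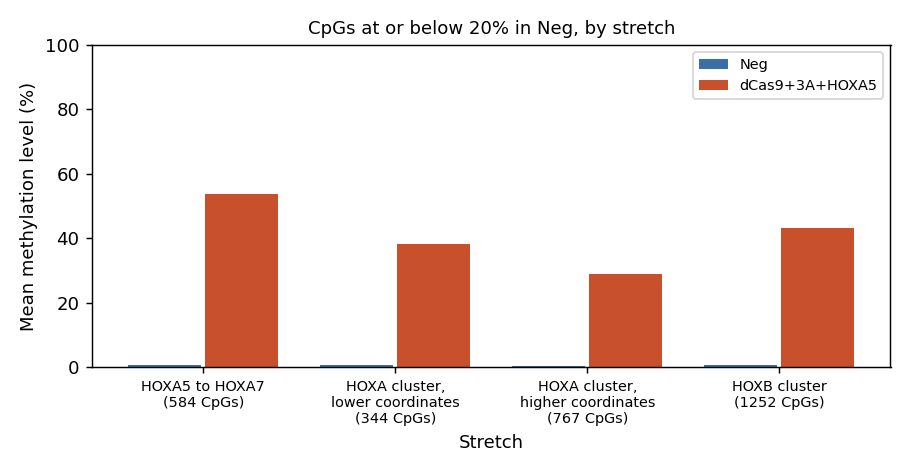
Mean methylation level (y axis, %) of CpGs at or below 20% in Neg, for Neg (blue) and dCas9+3A+HOXA5 (red), in the 28 kb, in 40 kb of the HOXA cluster on either side and in the HOXB cluster, with the number of CpGs below each pair of bars. All 4 stretches were higher in dCas9+3A+HOXA5, and the 28 kb was highest at 53.9%, with no error drawn because each value is 1 library.

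Of the other HOX genes, 9 of 35 tested promoters were called higher (1.49% of all promoters) and 1 lower (0.59% of all promoters), with a median difference of 8.18 points against 1.15 over all promoters. HOXA3, HOXA10 and HOXA11 were higher in the same cluster, at 1.67% against 35.0%, 2.31% against 60.5% and 0% against 56.8%, and HOXA9 was lower, at 53.5% in Neg and 14.3% in dCas9+3A+HOXA5 (adjusted p = 1.453e-08 by Fisher's exact test). The promoter of HOXA3 lies just upstream of its start at 27192202, within the 28 kb, so that its 20 CpGs repeat CpGs already described. The others called higher were HOXB2, HOXB4, HOXB5, HOXC4, HOXC11 and HOXD13, and HOXC11 had the largest difference of these at 63.1 points. In first exons, 7 of 33 were called higher (HOXB2, HOXB5, HOXB8, HOXC4, HOXC8, HOXC11 and HOXD9), against 0.961% of all first exons, with a median difference of 0.666 points against 0 over all first exons. HOX cofactors of the PBX, MEIS and PKNOX families bind DNA together with HOX proteins. Of these, 0 of 8 promoters and 0 of 7 first exons were called by Fisher's exact test. Over all features, 1.49% of promoters and 0.961% of first exons were called higher, so that 0 of so few is near those shares. The median differences of the cofactors were 0.167 points in promoters and -2.17 points in first exons, against 1.15 and 0 over all promoters and first exons.

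The genes most like HOXA5 were sought by the Euclidean distance over 4 levels, promoter and first exon in both libraries, among 8195 genes with at least 10 CpGs in each. The nearest was a gene of the same cluster, ENSG00000257184, with its promoter at chr7:27219633-27220632, at a distance of 12.7 points. Its promoter went from 7.47% to 43.0% and its first exon from 1.59% to 41.1%. Both pieces of this gene were called higher, as in HOXA5. GOLGA4, MORC4, CD44 and KIT followed, at 18.2 to 23.5 points. The first exons of GOLGA4, CD44 and KIT and the promoter of MORC4 were not called. KIT, which encodes a receptor tyrosine kinase, went from 14.4% to 40.8% in its promoter and from 0% to 10.0% in its first exon.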

How the data were processed

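CpG methylation was measured by WGBS in 1 library of each group, and groups were taken from the sample titles. Per the methods of the study and the submitters' processing notes, the authors trimmed and aligned reads to hg19 with BSMAP 2.90. Duplicate handling was not given in the sources used here. Per the file headers, the deposited counts are C reads and reads of either C or T per CpG, with the matching counts of the opposite strand. The deposited files also give an estimated count, which is the C or T count corrected by the opposite strand, and the level is deposited as a fraction, C reads over that estimated count, with confidence bounds. The minimum of 5 reads that the methods state had not been applied to the files.

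CpGs with at least 1 read in both libraries were used. The level of a region was the mean of the deposited fraction over its CpGs. Summed C and remaining C or T counts were compared by two-sided Fisher's exact tests in Python 3.11.15 with numpy 2.4.6, numba 0.67.0 and scipy 1.17.1, with Benjamini-Hochberg adjustment over all features of a class with at least 5 CpGs in the genome, and the script was tested on simulated data. Gene pieces came from 1 canonical transcript per protein-coding gene of GENCODE release 44 on GRCh37, with the promoter as the 1 kb upstream of the start. Transcripts that contain another one whole were passed over in setting the stretches between genes, so that their promoters were not taken out. Tiles were 500 bp long. A feature was called at a difference above 20 points and an adjusted p under 0.01. Wilson intervals are at 95%, and cover counting error only. The other genes named were those overlapping the 28 kb, the 5 genes nearest to HOXA5, and the called members of the HOX and cofactor lists; members and lists were chosen with earlier results of these data known. The authors' RNA and amplicon data are not used here. The sequence at the guide is not reported here. Minimum reads, read shares, uncorrected levels, CpGs with evidence of a variant, promoter definitions, tile sizes and a thinning of CpGs were varied.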

Additional observations from a re-analysis of the deposited data

How the results depend on the processing

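Of 103 values computed under alternatives, 90 kept their direction and their side of the threshold or stayed within 1.5 times the count. The alternatives with read shares or uncorrected levels reuse the same summed reads. Their p could not change, only the size and sign of the difference. Pieces that a minimum of reads left with under 5 CpGs are not among the 103. The share that was kept is therefore not a measure of how robust the results are. The 28-kb difference was between 39.7 and 48.7 points in all of its alternatives. The HOXA7 intron reversed with at least 3 reads (-22.33 points), with at least 5 reads (-19.46 points) and as a share of summed reads (-8.737 points), and the HOXA7 first exon reversed with at least 3 reads (-19.33 points). The HOXA5 first exon lost its call with at least 3 reads (32.5 points, adjusted p = 0.0110 by the exact test). With at most 1 CpG per 200 bp, chosen after seeing the data, the HOXA5 promoter (61.3 points, adjusted p = 0.415) and exon 2 of HOXA7 (47.2 points, adjusted p = 0.0967, exact tests) lost theirs on fewer CpGs, and pieces left with under 5 CpGs gave no value. Tiles called higher fell to 18 of 25 with 1000-bp tiles and to 16 of 25 with at least 3 reads, where 1 tile was called lower; both settings leave fewer tiles. The excess over other stretches among CpGs at or below 20% in Neg was 15.7, 24.5 and 10.7 points without passing the Wald test on log odds ratios, and 11.5 points over the side of lower coordinates with at least 5 reads. The causes of these changes were not tested. No paired analysis was possible because there was 1 library per group. Depth limits single CpGs, since 396 of the 786 had 1 or 2 reads in dCas9+3A+HOXA5.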
